A study of Mus musculus with 18 samples.

Results

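The 4 h response to a cell wall extract differed between arrays of mouse immune cells whose titles carry the codes 12 to 22 and arrays with the codes 32 to 37. The quantity described here is a difference of responses, which is the change from 0 h to 4 h in codes 12 to 22 minus the same change in codes 32 to 37, on the log2 scale. It rests on 8 of the 18 arrays of the series, with 2 arrays for each range and time. The arrays were chosen by the code and the time in their titles. A further range, codes 44 to 54, is placed beside them with 2 arrays for each time. Of 25804 probe sets tested, 103 (0.399%) had the higher response in the 12 to 22 range and 245 (0.949%) the lower one. The genes of the cytokine subunit Il12b, the growth factor Csf2, the cytokine Il6 and the chemokine Ccl5 were among the former. The folliculin partner Fnip2, the poly(A) polymerase Tent5c and the heme-degrading enzyme Hmox1 were among the latter. When arrays were left out in turn, Csf2, Il6 and Hmox1 lost their calls without several of them. Il12b, by its brightest probe set, did so without code 32 only, while Ccl5, Fnip2 and Tent5c kept their calls.

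The series measured total RNA on Affymetrix arrays before the extract (0 h) and 1 h and 4 h after it, with 6 arrays for each time. Its design text says that the treated animals were KO mice, and its title names TLR2, 2 further genes that are not analysed here, and IL-10. No label gives a genotype, strain, age, cell type, animal or source of the extract for any array, so the code ranges are not read as genotypes. What the ranges stand for (a genotype, a culture, an animal or a day of work) cannot be told apart. Nothing says that the 2 arrays of a group came from separate animals or cultures, and p-values then measure the spread between these arrays, which may be technical. In RNA from a mixture of cells, fewer cells of a type and less RNA per cell cannot be told apart either.

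As background, macrophages and dendritic cells sense microbial walls through Toll-like receptors on the surface and through cytosolic receptors. Both routes activate NF-kB and the MAP kinases. Early transcription factors such as the EGR and AP-1 families follow, then cytokines and chemokines, then genes driven by secreted interferon. IL-10 is a cytokine that these cells make in response to the same signals and that limits the output of IL-12, IL-6 and other inflammatory products. IL-12 and IL-23 share the subunit encoded by Il12b. GM-CSF, the product of Csf2, acts on the growth and activation of myeloid cells.

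The promoters of 5 genes are shown as examples, picked after their values were seen: 3 inflammatory genes with a higher response in codes 12 to 22 and 2 genes, Fnip2 and Irf2bpl, with a lower one. Other genes had differences as large. Each is the 250 bases upstream of the RefSeq start of the gene on GRCm38.p6, written 5′ to 3′ along the strand of the gene. Il12b lies on the plus strand (chr11:44399813-44400062), as does Il6 (chr5:30012864-30013113). Csf2 (chr11:54249900-54250149), Fnip2 (chr3:79567680-79567929) and Irf2bpl (chr12:86884815-86885064) lie on the minus strand. Capitals mark matches to the 9 motifs that were searched on both strands. In Il6 they are an AP-1 match (TGANTCA), a C/EBP match (TTGCNNAA) and a kappaB match (GGGA, any base, TTTCC), in this order. In Csf2 the capitals are a C/EBP match, and in Irf2bpl a PU.1 match (GAGGAAGT) and then a CRE match (TGACGTCA). No motif of the set was found in the windows of Il12b and Fnip2.
Il12b: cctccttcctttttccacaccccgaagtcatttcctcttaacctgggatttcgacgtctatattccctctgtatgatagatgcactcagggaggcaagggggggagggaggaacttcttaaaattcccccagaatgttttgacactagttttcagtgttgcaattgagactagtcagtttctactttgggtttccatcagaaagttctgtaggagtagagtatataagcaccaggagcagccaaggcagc
Il6: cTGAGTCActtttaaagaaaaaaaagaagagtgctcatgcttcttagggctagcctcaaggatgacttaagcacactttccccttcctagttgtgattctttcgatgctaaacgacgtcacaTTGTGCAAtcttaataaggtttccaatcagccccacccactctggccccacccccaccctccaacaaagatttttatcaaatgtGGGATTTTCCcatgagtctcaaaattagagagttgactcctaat
Csf2: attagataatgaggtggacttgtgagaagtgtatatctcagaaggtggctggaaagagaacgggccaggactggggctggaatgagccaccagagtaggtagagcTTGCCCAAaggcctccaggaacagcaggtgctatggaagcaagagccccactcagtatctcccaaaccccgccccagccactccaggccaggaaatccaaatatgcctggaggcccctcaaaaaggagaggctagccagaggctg
Fnip2: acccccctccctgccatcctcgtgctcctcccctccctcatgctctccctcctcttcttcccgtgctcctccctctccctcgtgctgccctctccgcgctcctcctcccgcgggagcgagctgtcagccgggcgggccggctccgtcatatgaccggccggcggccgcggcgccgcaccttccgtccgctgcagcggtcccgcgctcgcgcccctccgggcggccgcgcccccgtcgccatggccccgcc
Irf2bpl: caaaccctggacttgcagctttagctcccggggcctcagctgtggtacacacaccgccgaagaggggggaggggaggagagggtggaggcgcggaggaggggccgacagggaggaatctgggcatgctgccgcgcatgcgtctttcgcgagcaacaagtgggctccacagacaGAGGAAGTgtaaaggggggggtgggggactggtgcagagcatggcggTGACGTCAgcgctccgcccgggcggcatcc

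Of the 65 genes with a higher response in codes 12 to 22, 51 had a promoter listed under their symbol, and of the 147 genes with a lower response 119 did. A gene counted as holding a motif if any of its listed promoters did. The kappaB letters stood in 3 of the 51 (5.88%), namely Csf1, Il6 and Neurl3, in 0 of the 119 and in 0.504% of the promoters of all genes tested. The C/EBP letters were in 12 of the 51 (23.5%), in 14 of the 119 (11.8%) and in 9.1% of all. The PU.1 letters were in 1.96%, 7.56% and 2.96%, and the AP-1 letters in 9.8%, 9.24% and 5.78%. CRE matches stood at 5.88%, 3.36% and 2.98%, ISRE matches (GAAA, any 2 bases, GAAA) at 5.88%, 1.68% and 3.25%, and E-box matches (CACGTG) at 9.8%, 9.24% and 9.86%. EGR matches (GCGGGGGCG) stood at 3.92%, 6.72% and 5.57%, and GAS matches (TTCCNGGAA) at 0%, 0.84% and 1.2%. These shares are descriptions of letters in a window and carry no test. The AP-1, CRE, E-box and GAS letters read the same on both strands. Il6 holds its kappaB match 44 to 35 bases before the start.

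All 18 arrays came from the same kind of array and had the same trimmed mean signal, 499.8. Of 45101 probe sets, 25804 (57.2%) lay above the median of their own array on at least 4 arrays and were tested with limma, for 11733 named genes. The array medians ran from 74.7 to 78.2 at 4 h and from 89.8 to 97.4 at 0 h over the 8 arrays. Correlations between the 2 arrays of a group ran from 0.953 to 0.967. Macrophage markers were bright: 18 of 18 with a probe set passed the filter, and their summed signal lay between 344332 and 441620 on the 8 arrays. Of the T cell markers, 3 of 12 passed it (Cd8a, Zap70 and Il7r, but not Cd3d, Cd3e or Cd3g), of the B cell markers 3 of 8 (Cd79b, Cd22 and Ighm, but not Cd79a or Ms4a1), of the NK cell markers 2 of 8 (Klrd1 and Prf1) and of the mast cell and basophil markers 2 of 9 (Gata2 and Mcpt8). Stromal markers, collagens and other fibroblast genes, moved with the range. Their summed signal was 1294 to 1863 at 0 h and 1508 to 2026 at 4 h in codes 12 to 22, against 6400 to 7543 and 4099 to 5930 in codes 32 to 37. In codes 44 to 54 it was 17540 to 21878 and 15434 to 17705. None of the 8 stromal markers tested passed for the difference of responses, with a median of 0.37. Over all genes 0.554% were higher and 1.25% lower in codes 12 to 22, so a count of 0 in so few markers says little. For neutrophil markers the summed signal at 0 h was higher in the former range, 3952 to 4632 in codes 12 to 22 and 1931 to 2601 in codes 32 to 37, and 0 of 7 passed for the difference of responses. The B cell sum was 1788 to 2042 at 0 h and 963 to 976 at 4 h in codes 12 to 22, against 602 to 689 and 420 to 500 in codes 32 to 37, with 0 of 3 passing. The T cell sum overlapped at 0 h (4202 to 5932 and 4550 to 5674) and was 2620 to 3534 against 9143 to 11243 at 4 h, where Il7r, the brightest of its markers, reached 10983. The part of these markers in the results was not tested.

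Tlr2, the receptor for bacterial lipoproteins that the title names, was measured on every array. Its signals at 0 h were 4129 and 2824 in codes 12 to 22, 6046 and 5594 in codes 32 to 37, and 9878 and 6298 in codes 44 to 54. At 4 h they were 32556 and 26264, 19378 and 18050, and 22971 and 21979. Every array was bright, the 12 to 22 arrays were lowest at 0 h and highest at 4 h, and the groups did not overlap at either time. Where the probe set lies relative to any deleted part is not given, so its signal checks no label. Tlr2 rose in each range, by a log2 of 3.09, 1.68 and 1.51. The difference of responses between codes 12 to 22 and 32 to 37 was 1.41 ± 0.45 (SE) and did not pass (limma, adjusted p = 0.19). The spread of this fit includes the 1 h arrays, where the pair of codes 12 to 22 read 5053 and 10286.

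Il10, the gene of the cytokine in the title, had its lowest signals in codes 32 to 37 before the extract. At 0 h the signals were 36.3 and 59.6 there, against 315 and 245 in codes 12 to 22 and 282 and 243 in codes 44 to 54. At 1 h they were 2127 and 1675 in codes 32 to 37, 267 and 1063 in codes 12 to 22, and 1932 and 1625 in codes 44 to 54. By 4 h they were 2980 and 1243, 1278 and 482, and 2703 and 1643. Thus the 32 to 37 arrays were lowest at the start and overlapped the 12 to 22 arrays at 4 h, where the 1278 of one array exceeded the 1243 of another. Il10 rose in codes 32 to 37 (log2 4.95) and in codes 44 to 54 (2.93), while its value of 1.45 in codes 12 to 22 did not pass. The difference of responses was -3.50 ± 0.86 (limma, adjusted p = 0.0779), short of the threshold of 0.05. It passed under 1 of 19 alternative settings (lowest adjusted p = 0.0247 by limma). The spread of the main fit includes the 1 h arrays, where the pair of codes 12 to 22 read 267 and 1063. Neither the difference at 0 h (2.22, adjusted p = 0.075 by limma) nor that at 4 h (-1.27, adjusted p = 0.25) passed.

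Over all genes, 348 of 25804 probe sets (1.35%) passed limma's test of the difference of responses at an adjusted p of 0.05, and 3093 had an unadjusted p below 0.05. The higher responses in codes 12 to 22 numbered 103 (0.399%) and the lower ones 245 (0.949%), each at least 2-fold. By the brightest probe set of each gene, 65 genes (0.554%) were higher and 147 (1.25%) lower. The median difference over all probe sets was -0.01. The count depended on single arrays. Without code 32 it was 108, without code 35 it was 172, and without code 37 it was 152. It was 129 without code 18, 157 without code 16 and 156 without code 12. Leaving out code 34 gave 415, with 193 higher responses against 103. Deviations of neighbouring codes correlated at 0.123, 0.181 and 0.154, although no label pairs them. With neighbouring codes as a block 63 probe sets passed, and 51 of these were among the 348. When only the 8 arrays were fitted, 38 passed.

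**Figure D1:**
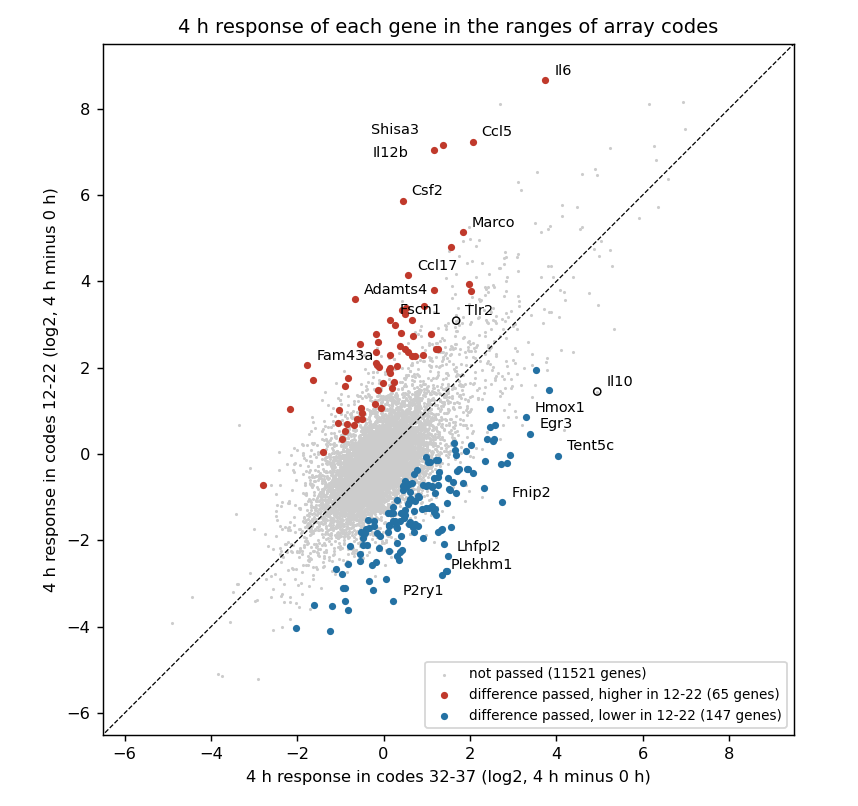
The 4 h response of each of the 11733 genes in codes 32 to 37 (horizontal axis) and in codes 12 to 22 (vertical axis), both as log2 of 4 h minus 0 h, with the dashed line at equal responses. Red marks the 65 genes and blue the 147 genes that passed the test of the difference, and the open circles are Il10 and Tlr2, which did not pass. Il12b, Shisa3, Ccl5 and Csf2 stand high above the line, at 7.05, 7.16, 7.23 and 5.87 in codes 12 to 22. In codes 32 to 37 their values are 1.18, 1.38, 2.06 and 0.44, of which those of Shisa3 and Ccl5 passed as rises.

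The 103 higher responses were mostly rises in codes 12 to 22. Of them, 61 rose in that range with no call in codes 32 to 37, 22 rose in both, and 10 rose in the former and fell in the latter. A further 9 fell in codes 32 to 37 with no call in the other range, and 1 fell in both. The 245 lower responses were more often falls. In 115 the signal fell in codes 12 to 22 with no call in codes 32 to 37, in 47 it fell in the former and rose in the latter, and in 61 it rose in codes 32 to 37 alone by the calls. The remaining 16 fell in both and 6 rose in both. These counts set the ranges' own calls side by side and do not test where they differ.

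The responses themselves were broad in every range. Within codes 12 to 22, 1874 probe sets rose (7.26%) and 3386 fell (13.1%), 20.4% in all. Within codes 32 to 37 the numbers were 1595 (6.18%) and 2313 (8.96%), 15.1% in all. Within codes 44 to 54 they were 1650 (6.39%) and 3081 (11.9%), 18.3% in all. The median response was -0.21, -0.20 and -0.23. The balance of rises and falls within a range depended on the scaling. Rises were 35.6%, 40.8% and 34.9% of the calls, and with each array centred on its median they were 60.2%, 70.0% and 64.7%. With quantile normalization they were 47%, 53.3% and 48.0%. The split of the difference of responses moved little, from 29.6% higher to 30.8% and 31.0%.

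Among the cytokines, Il12b was near background before the extract in every range. Its signals at 0 h were 27.2 and 86.5 in codes 12 to 22, 94.5 and 68.4 in codes 32 to 37, and 1.82 and 61.6 in codes 44 to 54. By 4 h they were 12195 and 6337, 189 and 216, and 390 and 397. At 4 h the 12 to 22 arrays stood far above all others, and the ranges did not overlap. Its difference of responses was 5.87 ± 0.92 (limma, adjusted p = 0.0101), from a rise of 7.05 in codes 12 to 22 and a value of 1.18 in codes 32 to 37 that did not pass. Another probe set of Il12b gave 6.17 ± 0.46 (limma, adjusted p = 1.43e-04). Codes 44 to 54 rose by 3.46, between the others. By the brighter probe set the call was lost without code 32 (adjusted p = 0.0576 by limma) with neighbouring codes as a block (0.0906) and with log2(signal + 1) (0.117).

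Csf2, which encodes GM-CSF, had signals from 7.37 to 44.4 on the 4 arrays at 0 h. At 4 h they were 2725 and 757 in codes 12 to 22, 57.2 and 22.8 in codes 32 to 37, and 172 and 123 in codes 44 to 54. The 3 ranges did not overlap at 4 h. Its difference of responses was 5.43 ± 1.07 (limma, adjusted p = 0.0309). Il6, the gene of an acute-phase cytokine, reached 18313 and 10201 in codes 12 to 22, 670 and 292 in codes 32 to 37, and 2561 and 1428 in codes 44 to 54. Before the extract the 12 to 22 arrays read 37.5 and 5.52 and the 32 to 37 arrays 48.3 and 2.40, so the ranges overlapped at 0 h and separated at 4 h. Unlike Csf2, Il6 rose in both ranges, by 8.66 and 3.74, with a difference of 4.91 ± 0.98 (limma, adjusted p = 0.0323). At 1 h Il6 read 21.3 and 80.8 in codes 12 to 22 but 471 and 327 in codes 32 to 37, so the order of the ranges was the reverse of that at 4 h. Both calls were lost without single arrays. Csf2 had an adjusted p by limma from 0.0946 to 0.134 without code 12, 16, 18, 32 or 37. Il6 had one from 0.116 to 0.13 without code 16, 18, 32 or 37. With log2(signal + 1) the adjusted p was 0.0999 for Csf2 and 0.274 for Il6, and with neighbouring codes as a block it was 0.0656 for Csf2. Both calls were also lost without the filter on dim signals and with only the 8 arrays fitted. Il6 lost its call with the 12 arrays of 0 h and 4 h as well. Csf2 passed the filter mainly through its 4 h signals in codes 12 to 22 and 44 to 54.

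Of 12 inflammatory cytokine genes tested, 4 had a higher response in codes 12 to 22 and 0 a lower one, beside 0.554% and 1.25% of all genes. The fourth was Il18, an interleukin of the IL-1 family, with 1.63 ± 0.33 (limma, adjusted p = 0.0339); it was named after its value was seen. The median difference of the list was 1.47, beside -0.04 over all genes, and the median response was 5.12 in codes 12 to 22, 2.09 in codes 32 to 37 and 3.26 in codes 44 to 54. Il1b, which encodes interleukin 1 beta, had a difference of 5.43 ± 1.41 that did not pass (limma, adjusted p = 0.0964). At 0 h it stood 4.10 lower in codes 12 to 22 on the log2 scale. Tnf, the gene of tumour necrosis factor, rose by 7.53 and 6.98, a difference of 0.55 ± 1.21. Il1b and Tnf were also picked after their values were seen.

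Ccl5, a chemokine for T cells and monocytes, showed the same order of ranges with brighter signals. At 0 h the arrays read 78.0 and 102 in codes 12 to 22 and 283 and 203 in codes 32 to 37. At 4 h they read 19682 and 12739 against 1552 and 714, with 6783 and 2556 in codes 44 to 54. The 12 to 22 arrays were thus the lower ones at the start and the higher ones at 4 h. The difference was 5.17 ± 0.75 (limma, adjusted p = 0.00687), and the call was kept under every alternative setting run. Ccl17, a ligand of CCR4, went from 13.3 and 15.9 to 660 and 417 in codes 12 to 22. In codes 32 to 37 it went from 13.5 and 65.8 to 38.5 and 80.5. In codes 44 to 54 it went from 66.3 and 75.1 to 152 and 84.3, with the 12 to 22 arrays above all others at 4 h. Its difference was 3.58 ± 0.66 (limma, adjusted p = 0.0226). The call was lost without code 12, 16, 18, 34 or 35 and with neighbouring codes as a block (0.0654). It was also lost without the filter on dim signals, with only the 8 arrays fitted and with the 12 arrays of 0 h and 4 h.

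Of 22 chemokine genes tested, 4 had a higher response in codes 12 to 22 and 0 a lower one, beside 0.554% and 1.25% of all genes. Cx3cl1, the membrane-bound chemokine fractalkine, differed by 2.40 ± 0.32 (limma, adjusted p = 0.00474), a call lost with neighbouring codes as a block (0.0821). Another probe set of Cx3cl1 gave 2.11 and did not pass (0.362). Cxcl16, a ligand of CXCR6 that was named after its value was seen, differed by 1.45 ± 0.29 (adjusted p = 0.0317), and stood 1.11 lower in codes 12 to 22 at 0 h. The list's median difference was 1.05. Its median response was 4.63 in codes 12 to 22, 4.34 in codes 44 to 54 and 2.06 in codes 32 to 37. Ccl3 and Ccl4, which attract monocytes and T cells, rose in both ranges, by 6.36 and 5.48 in codes 12 to 22. Their differences of -0.24 ± 0.97 and -0.43 ± 0.73 did not pass; both genes were picked after their values were seen.

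**Figure D2:**
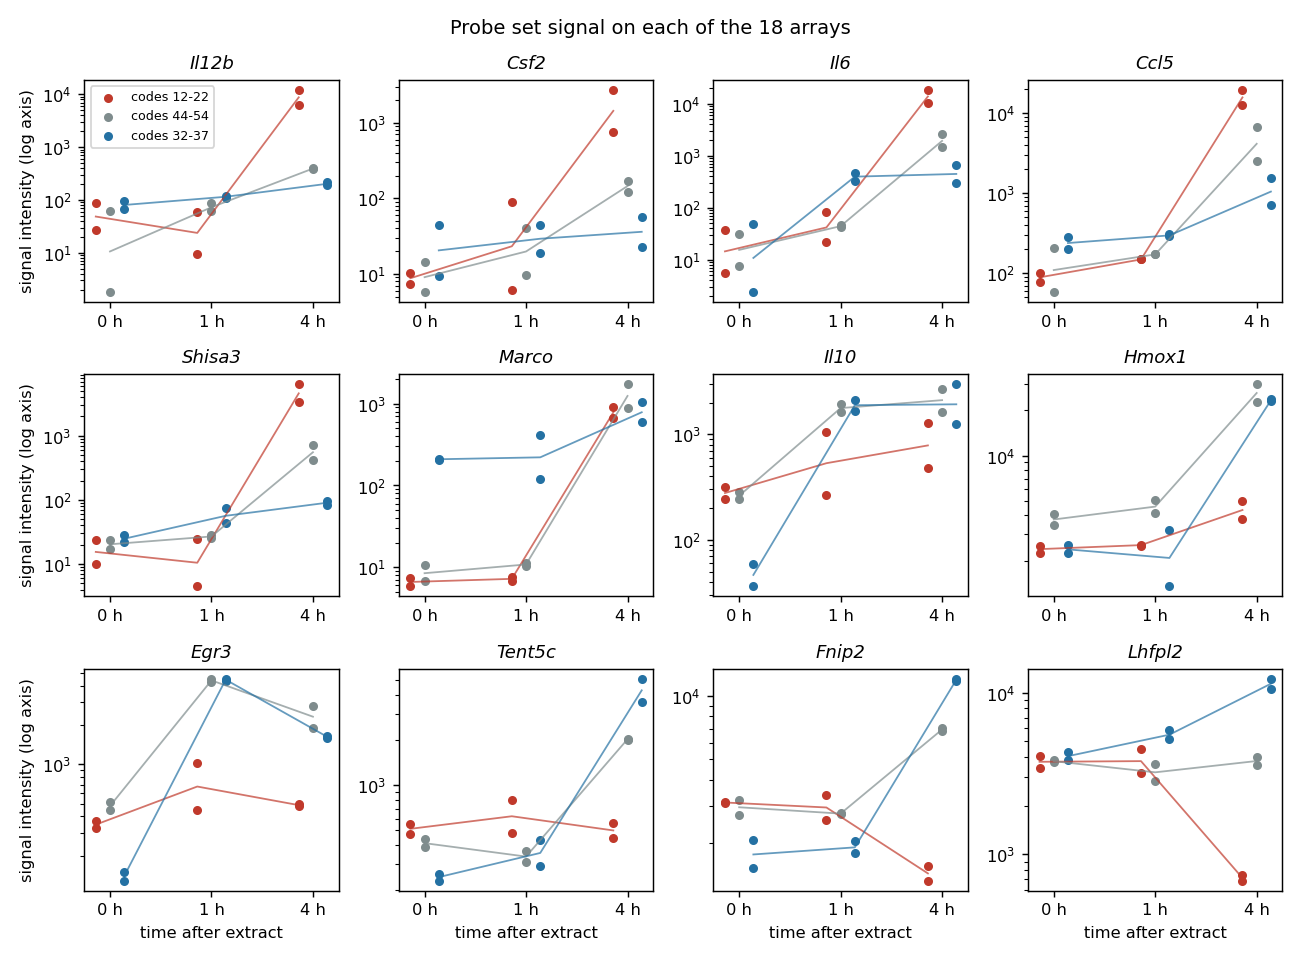
Signal intensity of 12 genes on each of the 18 arrays (log axis) at 0 h, 1 h and 4 h, with 1 point for each array and lines through the mean log2 value of each range. Il12b, Csf2, Il6, Ccl5 and Shisa3 end highest in codes 12 to 22, Marco starts highest in codes 32 to 37, and Hmox1, Egr3, Tent5c, Fnip2 and Lhfpl2 end lowest in codes 12 to 22.

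Shisa3, a member of a family of transmembrane proteins, had the smallest adjusted p of the higher responses by the brightest probe sets. Its signals went from 23.8 and 10.1 to 6353 and 3305 in codes 12 to 22, and from 28.4 and 21.8 to 84.7 and 96.7 in codes 32 to 37. In codes 44 to 54 they went from 17.3 and 24.0 to 720 and 426. All ranges started together and did not overlap at 4 h. The difference was 5.78 ± 0.56 (limma, adjusted p = 7.68e-04), and it was kept under every alternative setting in which Shisa3 was tested. Another probe set of Shisa3 gave 4.58 and just missed the threshold (adjusted p = 0.0519). Outside the cytokine, chemokine and uptake genes, further large differences were those of Adamts4, a protease of cartilage proteoglycans (4.26), Fam43a (3.83), Adgre4, an adhesion receptor of myeloid cells (3.36), Lad1, an anchoring filament protein (3.24), Bco2, a carotenoid-cleaving enzyme (3.21), Hspa1b, an inducible heat shock protein of the HSP70 family (3.10), and Plat, tissue plasminogen activator (2.98). Of these, Fam43a, Adgre4 and Bco2 rose in codes 12 to 22 (2.06, 1.72 and 1.05) and fell in codes 32 to 37 (-1.77, -1.63 and -2.17). Lad1, Hspa1b and Plat lost their calls without single arrays. The adjusted p by limma rose to 0.134 for Lad1, lost without each of the 8 arrays, to 0.106 for Hspa1b, lost without code 16, 18, 32 or 37, and to 0.0617 for Plat, lost without code 12, 16 or 32. With neighbouring codes as a block it was 0.08 for Adamts4, 0.0817 for Bco2 and 0.106 for Plat, and with log2(signal + 1) it was 0.112 for Lad1. Another probe set of Adgre4 gave 1.95 and did not pass (0.217).

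For some genes the ranges differed before the extract. Marco, a scavenger receptor of macrophages, read 5.87 and 7.47 at 0 h in codes 12 to 22 and 10.7 and 6.72 in codes 44 to 54, but 211 and 207 in codes 32 to 37. At 4 h the signals were 666 and 914, 1723 and 893, and 588 and 1044. The 32 to 37 arrays were far above the rest at the start, and the 3 ranges overlapped at 4 h. Its difference of responses of 3.31 ± 0.65 (limma, adjusted p = 0.0309) therefore came with a difference of -3.31 at 0 h (adjusted p = 0.0037) and of -0.01 at 4 h. The call was lost without every array of the 8 but code 37 (adjusted p from 0.0664 to 0.116) and with neighbouring codes as a block (0.0587). Fscn1, which bundles actin filaments in migrating dendritic cells, read 561 and 558 at 0 h and 5386 and 4575 at 4 h in codes 12 to 22. In codes 32 to 37 it read 1900 and 2302, then 1984 and 2753. In codes 44 to 54 it read 3711 and 5824, then 4396 and 6126. The 12 to 22 arrays were lowest at 0 h and came up to the level of codes 44 to 54 at 4 h. The difference of responses was 2.95 ± 0.41 (limma, adjusted p = 0.00537), with -1.87 at 0 h and 1.08 at 4 h, which both passed, and it was kept under every alternative setting run. The other 2 probe sets of Fscn1 gave smaller values that did not pass (1.08, adjusted p = 0.634, and 1.10, adjusted p = 0.231).

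Counted over the 103 higher responses, 63 differed at 4 h alone by the calls, 18 at 0 h alone with the 12 to 22 arrays lower, and 10 at both times in opposite directions. The others were 7 with no call at either time, 4 lower at both times and 1 higher at both. Over the 245 lower responses, 149 differed at 4 h alone, 49 at 0 h alone with the 12 to 22 arrays higher, 26 at both times in opposite directions, 20 at neither, and 1 was higher at both times. For comparison, 763 of all probe sets (2.96%) differed between the ranges at 0 h, with 372 higher (1.44%) and 391 lower (1.52%) in codes 12 to 22. At 4 h 1682 (6.52%) differed, 630 higher (2.44%) and 1052 lower (4.08%). With each array centred on its median, the higher share at 0 h was 38.0% in place of 48.8%.

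On the other side, Fnip2, a partner of folliculin in nutrient sensing at the lysosome, moved in opposite directions. In codes 12 to 22 its signals went from 3132 and 3097 at 0 h to 1323 and 1552 at 4 h. In codes 32 to 37 they went from 1512 and 2056 to 11791 and 12080, and in codes 44 to 54 from 3215 and 2718 to 6796 and 7061. The 12 to 22 arrays were lowest at 4 h, the 32 to 37 arrays highest, and no range overlapped another there. Fnip2 differed by -3.86 ± 0.28 (limma, adjusted p = 1.43e-04), a fall of 1.11 against a rise of 2.75. Lhfpl2, a tetraspan membrane protein, started alike, at 4055 and 3431 in codes 12 to 22 and 3827 and 4269 in codes 32 to 37. It ended at 685 and 740 against 10559 and 12194, and at 4009 and 3549 in codes 44 to 54, where it had begun at 3821 and 3704. The arrays of codes 44 to 54 thus stayed near their starting level while the others moved apart. The difference was -3.85 ± 0.29 (adjusted p = 1.43e-04 by limma). Of 3 further probe sets of Lhfpl2, 2 passed in the same direction.

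Tent5c, a noncanonical poly(A) polymerase, rose in codes 32 to 37 from 231 and 258 to 3594 and 5137. In codes 12 to 22 it read 556 and 473 at 0 h and 446 and 561 at 4 h, and in codes 44 to 54 it went from 436 and 389 to 2019 and 2039. The signal in codes 12 to 22 was level between the times, and the other ranges ended well above it. The difference was -4.08 ± 0.39 (limma, adjusted p = 6.94e-04). Irf2bpl, a member of the family that binds IRF2, fell in codes 12 to 22 from 1867 and 1991 to 274 and 294 and rose in codes 32 to 37 from 807 and 855 to 2442 and 2138. In codes 44 to 54 it fell from 2012 and 1849 to 758 and 861. The 12 to 22 arrays were above the 32 to 37 arrays at 0 h and below them at 4 h, with a difference of -4.14 ± 0.37 (adjusted p = 4.08e-04 by limma). Zc3h12d, a ribonuclease of the CCCH zinc finger family, and Plekhm1, an adaptor of late endosomes and lysosomes, fell in codes 12 to 22 and rose in codes 32 to 37 likewise. Their differences were -4.17 ± 0.36 and -4.15 ± 0.46. These 6 genes kept their calls under every alternative setting run.

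The remaining large differences on this side ran from -3.62 to -2.95. P2ry1, a receptor for ADP, differed mainly at 0 h: its signals were 190 and 247 in codes 12 to 22 and 10.4 and 7.67 in codes 32 to 37. At 4 h they were 4.66 and 7.75 against 4.32 and 26.2, where the ranges overlapped. In codes 32 to 37 P2ry1 was already near background at 0 h (array medians 92.2 and 89.8), so a fall could hardly show there. The size of its difference depended on the pseudocount: with log2(signal + 1) it was -5.23. Hdac9, a histone deacetylase, also started apart, at 745 and 1189 against 66.2 and 95.0, and overlapped at 4 h at 454 and 650 against 625 and 342. Marchf1, a ubiquitin ligase that removes MHC class II from the cell surface, differed by -3.47, and the mitotic kinase Nek6 by -3.26. Mocos, which sulfurates the molybdenum cofactor, differed by -3.11, the adaptor Bcar3 by -3.08, C77080 by -3.08, the prokineticin receptor Prokr1 by -3.06 and the stress gene Ndrg1 by -2.95. Bcar3 lost its call without code 16, 18, 22, 32 or 37 (limma, adjusted p from 0.0505 to 0.0851), and Prokr1 without code 12, 16, 32, 34 or 35 (0.0545 to 0.0933). With neighbouring codes as a block Mocos kept its call, and P2ry1, Hdac9, Marchf1, Nek6, Bcar3, C77080, Prokr1 and Ndrg1 lost theirs (adjusted p from 0.0541 for Ndrg1 to 0.102 for Prokr1). Further probe sets with values that did not pass were those of Hdac9 (-0.49), Bcar3 (-0.09) and Nek6 (-2.30 and -0.83).

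Of 25 immediate early genes tested, 3 had a lower response in codes 12 to 22 and 0 a higher one, beside 1.25% and 0.554% of all genes, with a list median of -0.27. Egr3, a zinc finger factor, read 371 and 324 at 0 h and 497 and 480 at 4 h in codes 12 to 22. In codes 32 to 37 it read 151 and 129, then 1608 and 1651, and in codes 44 to 54 446 and 519, then 1910 and 2820. At 1 h it had reached 4379 and 4534 in codes 32 to 37 and 4296 and 4507 in codes 44 to 54, against 447 and 1028 in codes 12 to 22. The 12 to 22 arrays were therefore lowest at 1 h and 4 h. Egr3 differed by -2.92 ± 0.43 (limma, adjusted p = 0.00724), kept under every alternative setting run, while another probe set of Egr3 gave 0.97 ± 0.98 and did not pass. Jun, an AP-1 subunit, differed by -2.32 and Atf3, a stress-induced factor, by -1.82. Another probe set of Jun gave -2.54 ± 0.29 and passed (limma, adjusted p = 0.00233). The losses that follow are those of the brightest probe sets. Jun lost its call without code 12, 16, 18, 22, 32 or 35 (limma, adjusted p up to 0.0738), and Atf3 without every array of the 8 but code 35 (up to 0.134). With neighbouring codes as a block the values were 0.0656 and 0.0756. Other members such as Nr4a2 (2.07) and Btg2 (1.91) had positive values that did not pass; they were picked after their values were seen.

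Of 13 MAP kinase feedback genes, 3 had a lower response and 0 a higher one, beside 1.25% and 0.554% of all genes. All 3 encode phosphatases of MAP kinases. Dusp6 fell in codes 12 to 22 from 1531 and 1001 to 91.2 and 182, and read 635 and 476, then 331 and 237, in codes 32 to 37. The 12 to 22 arrays were the higher ones at 0 h and the lower ones at 4 h. Its difference was -2.17 ± 0.44 (limma, adjusted p = 0.0365). Dusp7 and Dusp10 differed by -2.94 and -2.45, the former with an adjusted p of 0.05 to 2 decimals, just inside the threshold. Another probe set of Dusp7 gave -2.67 ± 0.37 and passed (limma, adjusted p = 0.00537), and a further one gave -1.41 and did not (0.371). By its brightest probe set, each of the 3 genes lost its call without single arrays. Dusp6 did so without 7 of the 8 arrays (all but code 22, adjusted p up to 0.144 by limma), Dusp7 without 6 (all but codes 22 and 37, up to 0.18) and Dusp10 without 7 (all but code 34, up to 0.15). With neighbouring codes as a block the adjusted p was 0.155, 0.144 and 0.121. The list's median was -0.28.

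In the list of IL-10 and its pathway, 1 of 16 genes passed, with a lower response (1.25% of all genes), Hmox1, the heme oxygenase that IL-10 and oxidative stress induce in macrophages. Its signals at 0 h were 2516 and 2255 in codes 12 to 22, 2523 and 2232 in codes 32 to 37 and 4097 and 3439 in codes 44 to 54. By 4 h they were 4999 and 3769, 23712 and 22962, and 29870 and 22840. The ranges 12 to 22 and 32 to 37 interleaved at the start, and the 12 to 22 arrays were lowest at 4 h by a wide margin. Hmox1 rose by 3.29 in codes 32 to 37, the value of 0.86 in codes 12 to 22 did not pass, and the difference was -2.43 ± 0.46 (limma, adjusted p = 0.025). The call was lost without each of the 8 arrays in turn (adjusted p from 0.052 to 0.0938). Il1rn, the antagonist of the interleukin 1 receptor, had -2.45 ± 0.54 and just missed the threshold (limma, adjusted p = 0.0519; picked after its value was seen). Socs1, an inhibitor of cytokine signalling in the same list, had 2.10 and did not pass (adjusted p = 0.39). The list median was -0.30.

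Of 23 genes of pattern recognition receptors and adaptors, 1 had a lower response (1.25% of all genes) and 0 a higher one (0.554%). This was Tlr13, the endosomal receptor for bacterial ribosomal RNA, which fell in codes 12 to 22 from 6138 and 7206 to 1745 and 1707. In codes 32 to 37 it rose from 1668 and 2904 to 3783 and 4504, and in codes 44 to 54 it fell from 7480 and 8585 to 3032 and 3218. The 32 to 37 arrays were lowest at 0 h and highest at 4 h. The difference was -2.84 ± 0.39 (limma, adjusted p = 0.00539).

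**Figure D3:**
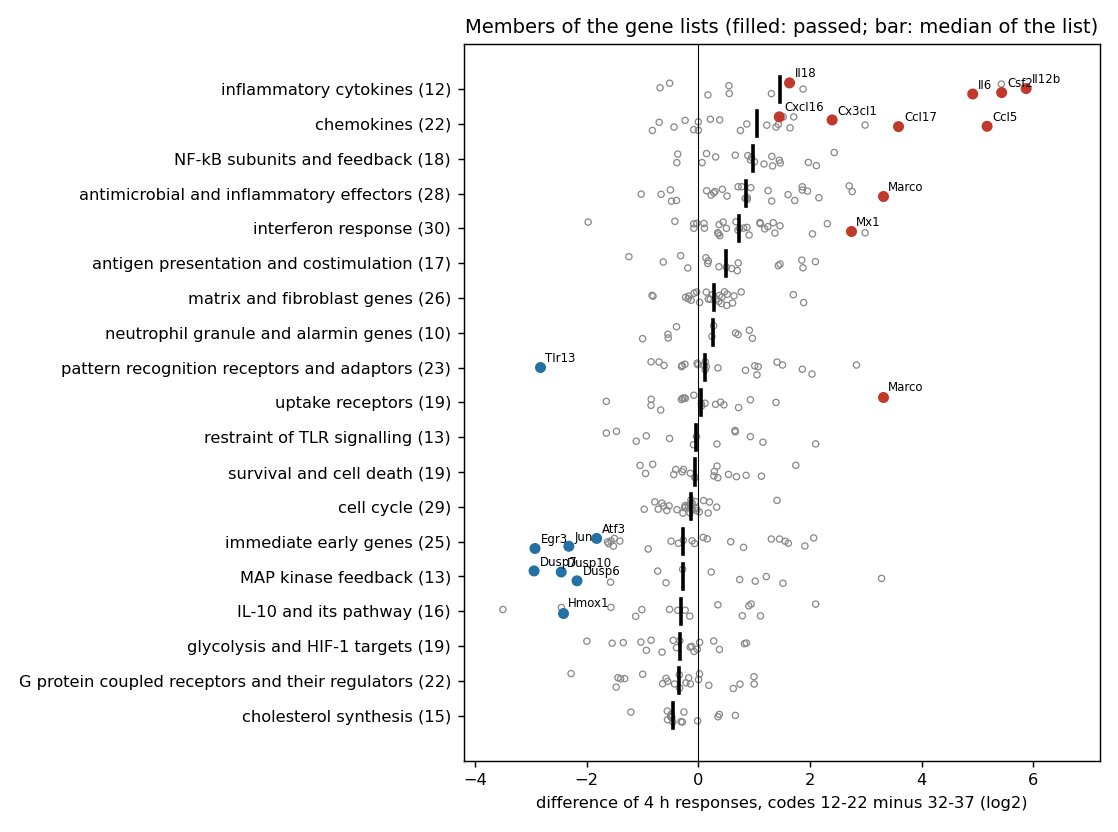
Difference of 4 h responses, codes 12 to 22 minus 32 to 37 (log2), of each tested member of the gene lists, with the number of members in brackets and a bar at the list median. Filled points passed the test: the higher ones lie among cytokines, chemokines, Mx1 and Marco, which stands in the effector and the uptake lists, and the lower ones among immediate early genes, MAP kinase phosphatases, Hmox1 and Tlr13.

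In the other lists few members passed, beside 0.554% of all genes with a higher and 1.25% with a lower response in codes 12 to 22. At those shares a list of 10 to 29 genes would hold few calls or none. A count of 0 or 1 therefore says little about a list. None of 18 NF-kB subunits and feedback genes did, although 16 had positive values, beside 5478 of all 11733 genes, and the median was 0.98. The largest values were those of the adaptor Traf1 (2.43 ± 0.98, adjusted p = 0.326 by limma) and the subunit Rel (2.11 ± 0.56, adjusted p = 0.105). The spread of the main fit includes the 1 h arrays. There the pair of codes 12 to 22 read 390 and 2957 for Traf1 and 243 and 559 for Rel. Values short of the threshold do not show that the responses were alike. Of 28 antimicrobial and inflammatory effectors 1 passed, Marco, with a list median of 0.86, and the same gene was the single call among 19 uptake receptors, where the median was 0.05. No gene passed among 17 antigen presentation genes (median 0.50), 13 restraints of TLR signalling (-0.03), 19 survival genes (-0.05), 29 cell cycle genes (-0.14), 19 glycolysis genes (-0.33), 15 cholesterol synthesis genes (-0.46), 22 G protein coupled receptors and their regulators (-0.34), 26 matrix genes (0.29) and 10 neutrophil granule genes (0.26). The members nearest to a call in these lists were Tnfaip2 of the NF-kB list (1.97, adjusted p = 0.0507 by limma; picked after its value was seen), the chemokine receptor Cxcr4 (-2.28, 0.0559), hexokinase Hk2 (-2.00, 0.0568) and cyclin Ccnd2 (1.41, 0.0569). Further values short of the threshold were Icosl 2.10, Lox 1.88, Icam1 1.87, Fas 1.75, Pdgfrb 1.70, Cdkn1a 1.13, Chil3 0.97 and Nr1h3 0.66 on the positive side. On the negative side they were Mertk -1.65, Hk1 -1.54, Rgs1 -1.47, Insig1 -1.21, Csf3r -0.998 and Mcm3 -0.97. Some of these genes passed under a few of the 19 alternative settings. Ccnd2 did so under 5, Cxcr4 and Hk2 under 4, Lox under 2, and Rel, Icosl, Icam1 and Hk1 under 1. In the marker lists 1 gene passed, Il7r of the T cell list (-1.87 ± 0.34, adjusted p = 0.0223 by limma; named after its value was seen), while the T cell receptor genes did not pass the filter on dim signals.

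In the interferon response list codes 44 to 54 had the highest median response. Of 30 genes, 1 had a higher response in codes 12 to 22 (0.554% of all genes) and 0 a lower one (1.25%). This was Mx1, an antiviral GTPase, which went from 428 and 872 to 3857 and 6343 in codes 12 to 22 and from 832 and 889 to 1320 and 800 in codes 32 to 37. In codes 44 to 54 it went from 681 and 561 to 8643 and 4883, so the 32 to 37 arrays were lowest at 4 h and the others overlapped. The difference of responses was 2.73 ± 0.58 (limma, adjusted p = 0.0434), and it was lost without code 12, 16, 22, 32, 35 or 37 (adjusted p from 0.0632 to 0.161) and with neighbouring codes as a block (0.0726). Within the ranges, 17 of the 30 rose in codes 12 to 22 (8.37% of all genes did), 5 in codes 32 to 37 (7.39%) and 23 in codes 44 to 54 (7.68%). The median response was 1.00, 0.24 and 1.95, and the median difference between the former pair was 0.72. At 0 h the list stood 0.80 lower in codes 12 to 22 than in codes 32 to 37 by its median. Codes 44 to 54 lay between the other ranges in 3 of the 30 genes, against 7 of 12 cytokines and 16 of 22 chemokines. Over all 11733 genes the number was 4880.

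**Figure D4:**
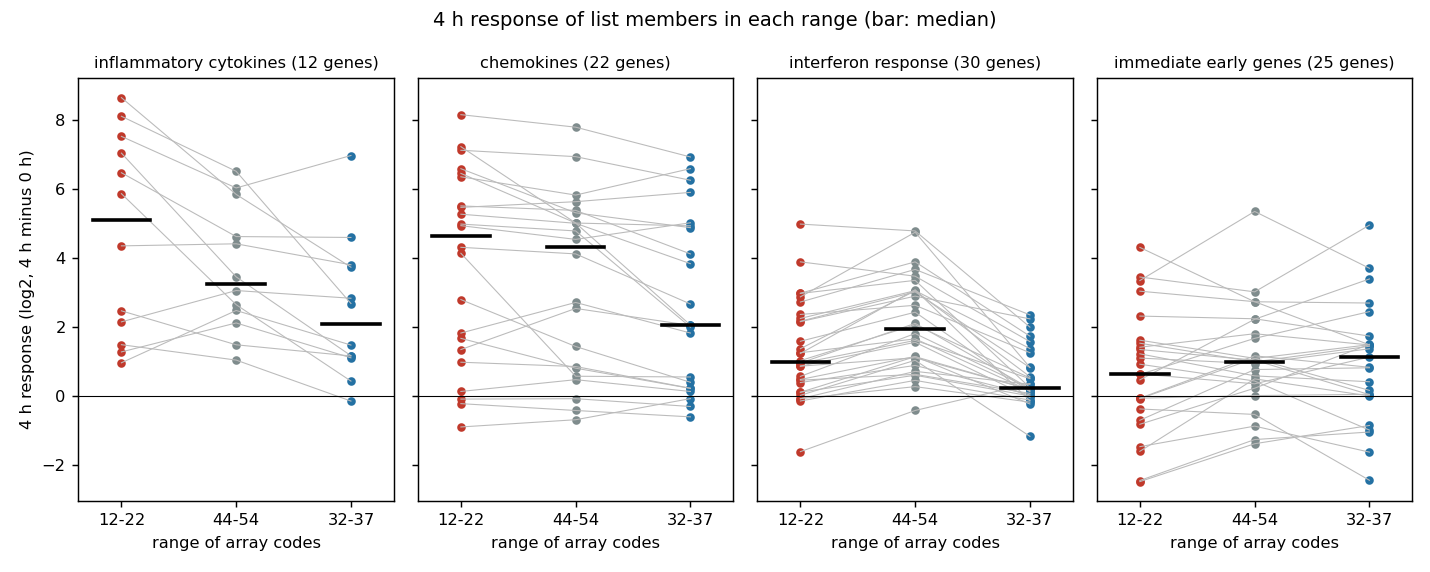
The 4 h response (log2 of 4 h minus 0 h) of each tested member of 4 gene lists in codes 12 to 22, 44 to 54 and 32 to 37, with a line for each gene and a bar at the median. In the interferon list the median is highest in codes 44 to 54 (1.95), whereas in the cytokine list codes 44 to 54 (3.26) lie between 5.12 and 2.09.

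For the probe sets that passed, codes 44 to 54 mostly lay between the others. Their response was between those of codes 12 to 22 and 32 to 37 in 316 of 348 probe sets (90.8%), beyond codes 12 to 22 in 18 and beyond codes 32 to 37 in 14. Over all tested probe sets the share between was 42.1%. The members were chosen for a wide gap between the outer ranges, and a wider gap leaves more room inside it, so the higher share is a description and carries no test. On a scale with 0 at codes 32 to 37 and 1 at codes 12 to 22, the median position was 0.478, with quartiles of 0.343 and 0.664. The response was nearer to codes 12 to 22 in 164 probe sets and nearer to codes 32 to 37 in 184. In the higher set the median responses were 2.15, 1.00 and 0.14 in codes 12 to 22, 44 to 54 and 32 to 37, and in the lower set -1.37, -0.33 and 0.67.

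**Figure D5:**
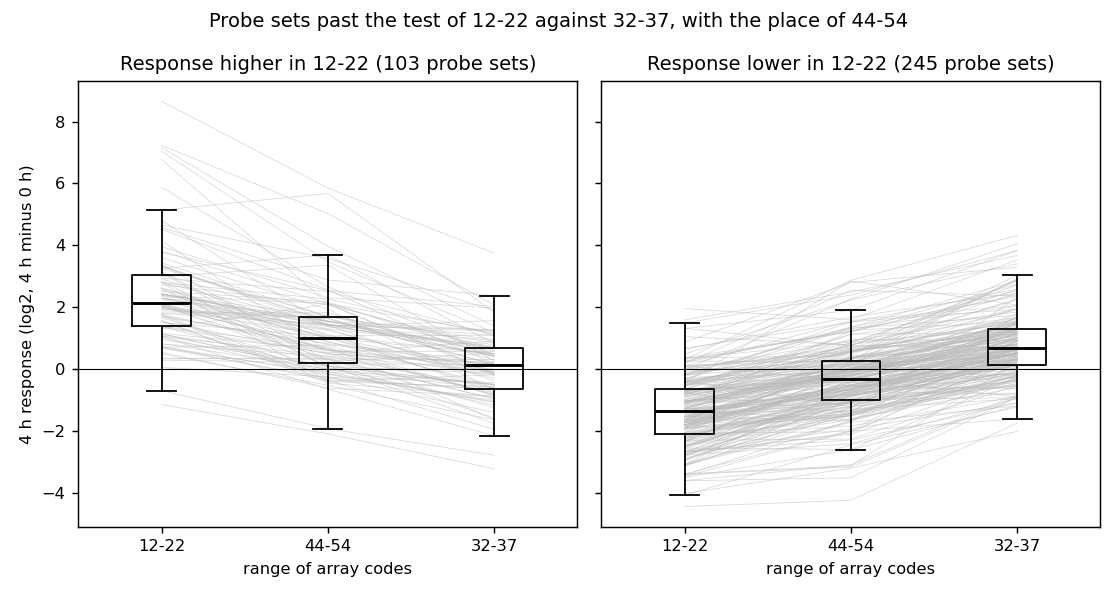
The 4 h response (log2 of 4 h minus 0 h) in codes 12 to 22, 44 to 54 and 32 to 37 of the 103 probe sets with the higher and the 245 with the lower response in codes 12 to 22. Grey lines join the values of a probe set, boxes span the quartiles with a line at the median, and whiskers follow Tukey's rule. The medians of codes 44 to 54, 1.00 and -0.33, lie between those of the outer ranges.

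Tested directly, codes 44 to 54 differed from each of the other ranges in few probe sets. These comparisons share arrays with the one above and are set beside it without a test of overlap. Against codes 12 to 22, 10 probe sets passed (0.0388%; limma, 1693 at an unadjusted p below 0.05), 4 higher (0.0155%) and 6 lower (0.0233%) in codes 12 to 22. The higher ones were Fscn1 (2.95), the small GTPase Rras2 (2.51), Tmem176a (1.85) and a probe set of Il12b (4.66). The lower ones were a pair of probe sets of Lhfpl2 (-2.37 and -2.26), Fnip2 (-2.34), the sialyltransferase St6galnac4 (-1.77), Zfp1 (-2.78) and the endothelin receptor Ednrb (-2.67). Against codes 32 to 37, 2 passed (0.00775%; 1969 unadjusted), both with the higher response in codes 32 to 37: Hdac9 (3.77) and the actin regulator Mtss1 (2.20). Rras2, Tmem176a, St6galnac4, Zfp1, Ednrb and Mtss1 were named after their values were seen.

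Single genes took different places. Fscn1, Ccl17, Plat and Lad1 had responses in codes 44 to 54 (0.16, 0.58, -0.41 and 1.39) close to those in codes 32 to 37 (0.16, 0.56, -0.18 and 1.56), and far from 3.11, 4.15, 2.79 and 4.80 in codes 12 to 22. Marco, Mx1, P2ry1 and Ndrg1 stood near codes 12 to 22, at 5.67, 3.36, -3.13 and 0.14 against 5.14, 2.98, -3.39 and -0.02. In codes 32 to 37 P2ry1 was near background before the extract and had little room to fall. Il6, Shisa3, Csf2, Fam43a, Tent5c and Jun lay in the middle, at 5.85, 3.97, 2.66, 0.11, 2.26 and 0.24. Apart from Fscn1, whose difference from codes 12 to 22 passed, none of these genes differed from codes 44 to 54 past the threshold in either direction by its brightest probe set. The limma adjusted p against codes 12 to 22 was 0.056 for Plat and 0.086 for Shisa3, and against codes 32 to 37 it was 0.072 for Ndrg1 and 0.076 for Marco and P2ry1. Such values do not show that the responses were alike.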

How the data were processed

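The deposited values are signal intensity on a linear scale. GCOS and MAS5, Affymetrix tools for array signals, are named per the submitters' processing notes, and no version or setting is given in the sources used here. The mean of the values between percentiles 2 and 98 was 499.8 for all arrays, which ties the levels of the arrays to one another.

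Values were taken as log2(signal + 16), which understates changes of dim genes, with no further normalization. R 4.3.3 and limma 3.58.1 (lmFit, eBayes) fitted 9 group means, one per code range and time, to all 18 arrays (9 residual degrees of freedom), after a filter for probe sets above the median of their array on at least 4 arrays. P-values were adjusted by Benjamini-Hochberg over 25804 probe sets, with a threshold of 0.05, and "rose", "fell" and "differed" refer to it. With 2 arrays in a group no exact test of single genes can reach the threshold, and the spread is shared over all groups. Errors are standard errors of this fit. The fit was also run on simulated signals with independent normal noise, as the model assumes. That checks the calculation only, and not any tie between neighbouring codes.

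Of the 45101 probe sets, 34945 carry a single gene symbol in the platform annotation, 932 carry several and 9160 none (the latter were tested and counted, not named). For each gene the brightest probe set past the filter stands for it. Promoters come from RefSeq on GRCm38.p6, matched by symbol. Named were Il10 and Tlr2, the 15 largest differences in each direction among the genes past the threshold, and in every list the 3 largest past it or, with none past it, the 2 largest of all. Exceptions are marked in the text. Of 43 further probe sets of the 62 named genes, 41 had the same direction and none opposed it past the threshold. The members and the 28 gene lists were chosen with earlier results of these data known. Alternatives were the pseudocount, the filter, quantile normalization, median centring, the arrays in the fit, array weights, a trended prior, neighbouring codes as a block, and each of the 8 arrays left out, where the lone array of a group is assumed to vary like the other groups.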

Additional observations from a re-analysis of the deposited data

Results flagged for a closer look

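The difference of 4 h responses between ranges of array codes was itself tested over 25804 probe sets (limma, adjusted p below 0.05). For codes 12 to 22 against 32 to 37, 348 passed (1.35%). The numbers were 10 (0.0388%) for codes 12 to 22 against 44 to 54 and 2 (0.00775%) for codes 32 to 37 against 44 to 54. Among the named genes 40 passed the test of codes 12 to 22 against 32 to 37. This number follows from the naming rule, which took genes because they passed that test. On the log2 scale the positive differences were Il12b 5.87, Shisa3 5.78, Csf2 5.43, Ccl5 5.17, Il6 4.91, Adamts4 4.26, Fam43a 3.83, Ccl17 3.58, Adgre4 3.36, Marco 3.31, Lad1 3.24, Bco2 3.21, Hspa1b 3.10, Plat 2.98, Fscn1 2.95, Mx1 2.73 and Cx3cl1 2.40. The negative ones were Atf3 -1.82, Dusp6 -2.17, Jun -2.32, Hmox1 -2.43, Dusp10 -2.45, Tlr13 -2.84, Egr3 -2.92, Dusp7 -2.94, Ndrg1 -2.95, Prokr1 -3.06, C77080 -3.08, Bcar3 -3.08, Hdac9 -3.10, Mocos -3.11, Nek6 -3.26, Marchf1 -3.47, P2ry1 -3.62, Lhfpl2 -3.85, Fnip2 -3.86, Tent5c -4.08, Irf2bpl -4.14, Plekhm1 -4.15 and Zc3h12d -4.17. No array-level outlier test was possible in groups of 2 arrays. What the code ranges stand for is not in the labels, and no cause of these differences was tested.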

How the results depend on the processing

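For codes 12 to 22 against 32 to 37, 348 probe sets (103 higher, 245 lower) became 139 (38 and 101) with no filter on dim signals, 38 (12 and 26) when only the 8 arrays were fitted, 608 (194 and 414) with a trended prior and 63 (25 and 38) with neighbouring codes as a block. Leaving out 1 array gave 108 to 415 probe sets, 24 to 193 higher and 84 to 222 lower. Each of these fits also had 1 array fewer, and the cause of the changes was not tested. Other settings (pseudocount, stricter filter, normalization, 12 arrays, array weights) gave 273 to 467. For codes 12 to 22 against 44 to 54, 10 became 30 with pseudocount 64, 1 without the filter and 24 with a filter on 9 arrays. For codes 32 to 37 against 44 to 54, 2 became 0 with pseudocount 1, 37 with pseudocount 64, 1 without the filter, 16 with the stricter filter and 31 with quantile normalization. Without the filter, the responses within codes 32 to 37 and 44 to 54 fell to 2345 and 3056 calls from 3908 and 4731. The differences between the ranges at 0 h and 4 h fell to 339 and 804 from 763 and 1682, and called list members to 5 from 18. Of the 40 named genes past the threshold, 23 kept their call without each of the 8 arrays, 18 kept it with the block, and 12 under every setting in which they were tested (19, or 18 for Shisa3, which did not pass the stricter filter). Over the 62 named genes 0 of 1168 values changed sign past the threshold, 177 lost the call and 20 gained it. The number of arrays, 2 in a group, and dim signals at 0 h, as for Il12b and Csf2, limit the precision.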
